A study of Mus musculus with 4 samples.

Results

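Oligodendrocyte precursors are glial cells that persist in the adult spinal cord, divide after injury and mature through a committed, premyelinating stage into oligodendrocytes that wrap axons in myelin. The 10 genes described here follow that path, and they were matched to the tables by symbol. PDGFRA is the receptor through which precursors respond to platelet-derived growth factor. OLIG1, OLIG2, SOX10, NKX2-2, NKX6-2 and MYRF are transcription factors of the lineage. GPR17, ENPP6 and BCAS1 mark cells that have left the precursor state and have not all become mature. All 10 genes were listed at 7 days post injury (dpi) and 9 of them at 21 dpi, where NKX6-2 was not listed, out of 14718 gene symbols listed at either time point.

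RNA was sequenced from cord tissue around the lesion in male mice aged 3 to 5 months. The mice carried human ApoE3 or human ApoE4 in place of the mouse gene (targeted replacement), and every group had received a 50 kdyne contusion over the thoracic spine under isoflurane. There were 4 groups, ApoE3 at 7 dpi, ApoE4 at 7 dpi, ApoE3 at 21 dpi and ApoE4 at 21 dpi. Each group had 3 mice, combined by the authors into 1 value per gene, and no value per mouse was used here. The authors' own p-values and q-values were not used either. No difference below therefore comes with a replicate check or a p-value. How far neighbouring levels differ beyond the spread between mice was not assessed here. In 1 replicate, whose group the methods do not name, fewer reads aligned than in the others. Uninjured cord was not analysed here.

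Levels are FPKM, fragments normalized to transcript length and to sequencing depth, so they can be set side by side between genes. Differences between genotypes are log2((FPKM ApoE3 + 1)/(FPKM ApoE4 + 1)), and a positive ratio means higher in ApoE3. A gene counts as past the fold where it differs by 1.3-fold or more, 0.379 on the log2 scale, which is the fold of the study's methods. The deposited table allows a second reading of its value columns. Each comparison is named ApoE3 versus ApoE4, and its ratio is the first value over the second, but the cells that name the groups of those values place ApoE4 first. The reading of the study, ApoE3 first, was used here, and under the other reading every genotype direction below would be the opposite. The values at 7 and at 21 dpi come from separate comparisons by the authors and may have been normalized separately, which bears on every level set across time.

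All genes together differed between the groups at 21 dpi. The median log2 ratio over genes with a mean level of at least 1 FPKM was 0.0018 at 7 dpi. The same median was -0.42 at 21 dpi, when 93.8% of the 11474 listed genes had a lower level in ApoE3, and the listed FPKM summed to 1513867 in ApoE3 and 2050622 in ApoE4. Most genes were thus lower in ApoE3 at 21 dpi as deposited, and each gene is given both as deposited and relative to that median. Relative values in the following are log2 ratios minus the median of the same comparison.

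**Figure D1:**
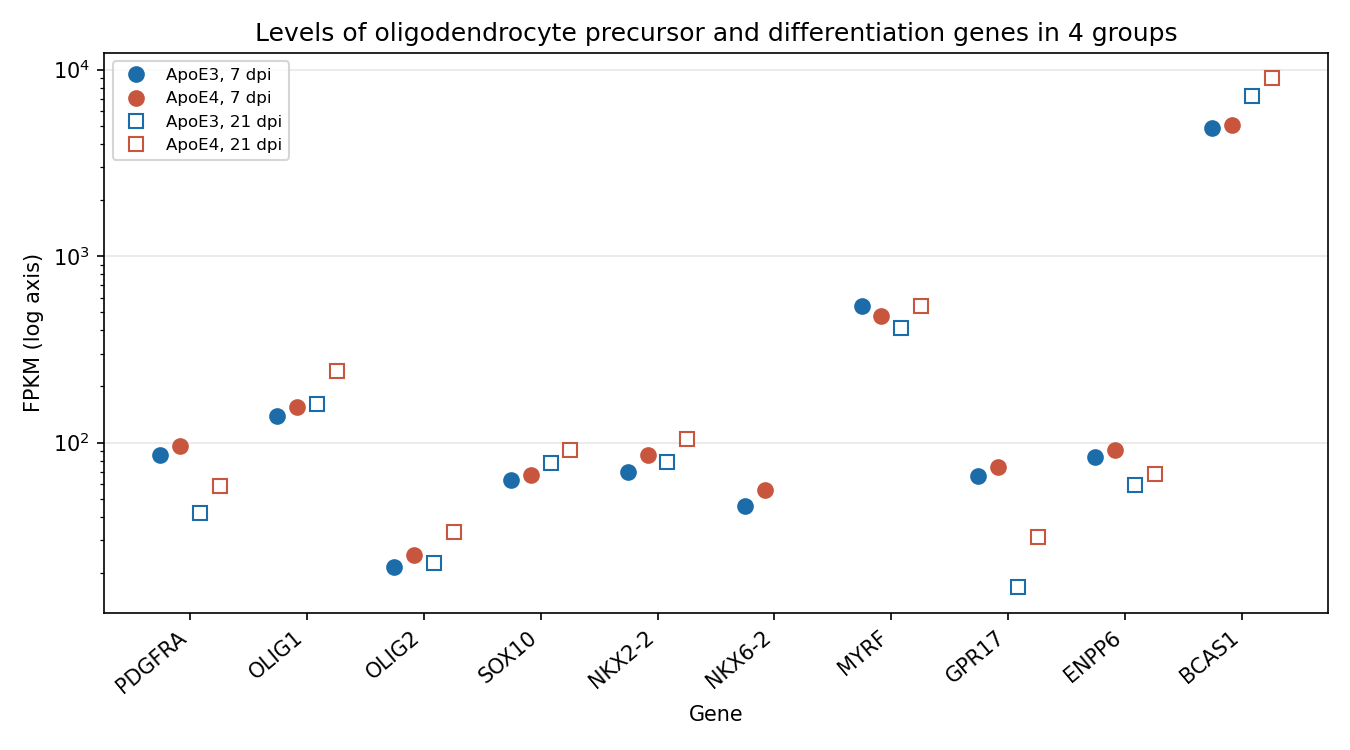
Level of each of the 10 genes (FPKM, log axis) in 4 groups, 1 point per group, with filled circles for 7 dpi, open squares for 21 dpi, blue for ApoE3 and red for ApoE4. BCAS1 lies above all others in every group, and the squares of PDGFRA, GPR17 and ENPP6 lie below their circles. NKX6-2 has no square because it was not listed at 21 dpi.

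The levels spanned a wide range. At 7 dpi in ApoE3 they ran from 21.6 FPKM for OLIG2 to 4849.5 FPKM for BCAS1. The order of the 10 genes at 7 dpi was the same in both genotypes, BCAS1 first, followed by MYRF, OLIG1, PDGFRA, ENPP6, NKX2-2, GPR17, SOX10, NKX6-2 and OLIG2. The order of the 9 genes listed at 21 dpi was again the same in ApoE3 and ApoE4, with BCAS1, MYRF and OLIG1 at the top and OLIG2 and GPR17 at the bottom. PDGFRA stood at place 4 of 10 at 7 dpi and at place 7 of 9 at 21 dpi, and GPR17 at place 7 of 10 and at place 9 of 9. In level, BCAS1 was at or above 99.9% of all genes in each of the 4 groups. Since whole tissue was measured, fewer cells of the lineage and less RNA per cell cannot be told apart in any of these values.

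PDGFRA, the growth factor receptor that defines precursors, had a level of 85.5 FPKM in ApoE3 and 95.4 FPKM in ApoE4 at 7 dpi. At 21 dpi its level was 42.0 FPKM in ApoE3 and 58.8 FPKM in ApoE4. Both genotypes had the lower level at the later time. The genotype ratio (log2) was -0.16 at 7 dpi and -0.47 at 21 dpi, and relative to all genes it was -0.16 and -0.05. The difference at 21 dpi was thus close to that of the median gene. In the time comparison, log2((FPKM at 21 dpi + 1)/(FPKM at 7 dpi + 1)), PDGFRA stood at -1.01 in ApoE3 and -0.69 in ApoE4, or -1.10 and -1.21 relative to all genes.

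PDGFRA is also made by fibroblasts, which form scar in the injured cord. Of 12 fibroblast genes, 10 of 11 listed at 7 dpi were below the median gene in ApoE3 over ApoE4, and the summed level of the list was 1395 FPKM in ApoE3 and 1722 FPKM in ApoE4, with THY1, a surface protein also made by neurons, as the most abundant gene. At 21 dpi 10 of 11 were above the median gene, and the summed level was 1624.5 FPKM in ApoE3 and 1793 FPKM in ApoE4, again with THY1 first. The later sum also holds FN1, the matrix protein fibronectin, which was not listed at 7 dpi and had 454 FPKM in ApoE3 and 511 FPKM in ApoE4 at 21 dpi. Over the 9 genes listed at both times other than THY1, a sum chosen after the values were seen, the level was 938 FPKM in ApoE3 and 1307.5 FPKM in ApoE4 at 7 dpi and 153 FPKM and 95.5 FPKM at 21 dpi. With FN1 kept, the sum at 21 dpi without THY1 was 607.3 FPKM in ApoE3 and 606.8 FPKM in ApoE4. The higher sum of the 9 genes in ApoE3 at 21 dpi came from DCN and MFAP5, without which the other 7 had 71.8 FPKM and 84.2 FPKM. POSTN, a matricellular protein, had the lowest ratio at both times, with 119 FPKM in ApoE3 and 199.97 FPKM in ApoE4 at 7 dpi. MFAP5, a microfibril protein, had the highest ratio at 21 dpi with 19.2 FPKM and 1.97 FPKM, and DCN, a small matrix proteoglycan, had 61.9 FPKM and 9.37 FPKM. COL1A1, a chain of the main fibrous collagen, had 212 and 270 FPKM at 7 dpi and 2.44 and 2.27 FPKM at 21 dpi in ApoE3 and ApoE4. None of the fibroblast genes listed was at 0 in any group, and the part of fibroblasts in the PDGFRA values was not tested. Between 7 and 21 dpi, 7 of the 10 fibroblast genes listed at both times in ApoE3 and 9 of 10 in ApoE4 were lower past the fold relative to all genes, as PDGFRA was, and as were 27.7% and 28.6% of all genes.

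Promoter windows of RefSeq (build GRCm38.p6, 250 bases before to 50 after the start of a gene) were found for 5 of the 10 genes, PDGFRA, OLIG2, NKX2-2, NKX6-2 and ENPP6. OLIG1, SOX10, MYRF, GPR17 and BCAS1 were not in the table. The windows were searched on both strands for 5 short motifs, chosen after the values were seen, that belong to the factor families of this lineage. These were ACAATG and ACAAAG, core forms bound by SOX proteins, CAGCTG and CATCTG, E-boxes bound by basic helix-loop-helix proteins such as the OLIG factors, and CACTT, a core bound by NKX2 proteins. Of all 32851 promoter windows, 12.6% held ACAATG, 18.7% ACAAAG, 16.3% CAGCTG, 17.2% CATCTG and 46.4% CACTT. Among the 5 windows, ACAATG was in 2 (OLIG2 and ENPP6), CATCTG in 2 (PDGFRA and NKX2-2), CACTT in 2 (NKX2-2 and ENPP6), and ACAAAG and CAGCTG in 0. A match is a description of the letters, not a site or a cause. The windows of PDGFRA, ENPP6 and OLIG2 are shown because they stand for the precursor, for the premyelinating cell and for the factor needed throughout the lineage.

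The PDGFRA window, chr5:75152001-75152300 on the plus strand, holds CATCTG on the strand of the gene, in capitals.
PDGFRA: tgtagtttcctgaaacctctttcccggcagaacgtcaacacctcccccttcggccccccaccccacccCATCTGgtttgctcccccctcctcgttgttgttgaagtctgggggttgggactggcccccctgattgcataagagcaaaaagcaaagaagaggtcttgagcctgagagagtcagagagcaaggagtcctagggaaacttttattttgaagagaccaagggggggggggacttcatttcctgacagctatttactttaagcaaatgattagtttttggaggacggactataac

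OLIG1 and OLIG2, related basic helix-loop-helix proteins, lie on the same chromosome with 1 predicted non-coding gene between their starts in RefSeq. OLIG1, which acts mainly in maturation and repair of myelin, had a level of 139 FPKM in ApoE3 and 156 FPKM in ApoE4 at 7 dpi. At 21 dpi the OLIG1 level was 161 FPKM in ApoE3 and 242 FPKM in ApoE4. Its genotype ratio (log2) was -0.17 at 7 dpi and -0.58 at 21 dpi, and -0.17 and -0.16 relative to all genes, so the relative difference was nearly the same size at both times. Its time ratio (log2) was 0.22 in ApoE3 and 0.63 in ApoE4, or 0.13 and 0.10 relative to all genes.

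OLIG2, needed to specify precursors from neural progenitors, was the lowest of the 10 genes at 7 dpi, with 21.6 FPKM in ApoE3 and 25.0 FPKM in ApoE4. Its level at 21 dpi was 22.6 FPKM in ApoE3 and 33.2 FPKM in ApoE4. The ApoE3 levels at both times were close together, and the ApoE4 level at 21 dpi stood above the other 3. As a genotype ratio (log2) this was -0.20 at 7 dpi and -0.53 at 21 dpi, or -0.20 and -0.11 relative to all genes. Relative to all genes the OLIG2 time ratio (log2) was -0.03 in ApoE3 and -0.13 in ApoE4. The level of OLIG1 was 6.41 times that of OLIG2 in ApoE3 and 6.24 times in ApoE4 at 7 dpi, and 7.12 and 7.28 times at 21 dpi, so their proportion was alike in both genotypes.

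The OLIG2 window, chr16:91225300-91225599 on the plus strand, holds ACAATG on the opposite strand, so the capitals show its reverse complement.
OLIG2: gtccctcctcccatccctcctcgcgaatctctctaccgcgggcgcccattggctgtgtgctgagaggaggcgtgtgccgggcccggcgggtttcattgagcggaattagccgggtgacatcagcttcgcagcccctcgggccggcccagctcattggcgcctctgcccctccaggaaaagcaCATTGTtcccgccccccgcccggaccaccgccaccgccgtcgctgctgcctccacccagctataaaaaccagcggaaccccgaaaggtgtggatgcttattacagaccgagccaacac

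SOX10, a factor that oligodendrocytes and Schwann cells share and that drives myelin genes, had a level of 62.8 FPKM in ApoE3 and 67.1 FPKM in ApoE4 at 7 dpi. At 21 dpi it had 77.9 FPKM in ApoE3 and 91.9 FPKM in ApoE4. SOX10 was higher at 21 than at 7 dpi in both genotypes as deposited. Its genotype ratio (log2) was -0.09 at 7 dpi and -0.23 at 21 dpi, and -0.10 and 0.19 relative to all genes. ApoE3 was thus below ApoE4 as deposited and, relative to all genes, above it at 21 dpi. The time ratio (log2) relative to all genes was 0.22 in ApoE3 and -0.08 in ApoE4.

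Schwann cell genes stood apart at that time. All 11 listed Schwann cell genes were above the median gene in ApoE3 over ApoE4 at 21 dpi, against 2 of 7 at 7 dpi. Their summed level was 140 FPKM in ApoE3 and 157 FPKM in ApoE4 at 7 dpi, and 1409 FPKM in ApoE3 and 199 FPKM in ApoE4 at 21 dpi. DRP2, a protein of the outer Schwann cell membrane and the most abundant of the list at 7 dpi, had 83.9 FPKM in ApoE3 and 81.7 FPKM in ApoE4 at that time and 294 FPKM and 109 FPKM at 21 dpi, and no listed gene of the list was at 0 in any group. The part of Schwann cells in the SOX10 values was not tested.

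NKX2-2, which represses precursor genes as differentiation begins, had a level of 69.6 FPKM in ApoE3 and 85.9 FPKM in ApoE4 at 7 dpi. At 21 dpi its level was 79.1 FPKM in ApoE3 and 105 FPKM in ApoE4. Its genotype ratio (log2) at 7 dpi, -0.30, was the lowest of the 10 genes, and 7.81% of all genes were at or below it. At 21 dpi the ratio was -0.40 as deposited and 0.02 relative to all genes, close to the median gene. NKX6-2, a homeodomain factor needed for normal myelin and axon contacts, was listed only at 7 dpi, with 46.0 FPKM in ApoE3 and 55.7 FPKM in ApoE4. Its genotype ratio (log2) there was -0.27, next to that of NKX2-2. That a gene is not listed does not give its level.

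MYRF, a membrane-bound factor that is switched on as cells begin to myelinate, was the only 1 of the 10 genes with the higher level in ApoE3 at 7 dpi, 539 FPKM against 480 FPKM in ApoE4. At 21 dpi its level was 412 FPKM in ApoE3 and 542 FPKM in ApoE4. The order of the genotypes was thus opposite at the later time as deposited. The genotype ratio (log2) was 0.17 at 7 dpi, with 81.6% of all genes at or below it, and -0.39 at 21 dpi. Relative to all genes it was 0.16 and 0.03, without a change of sign. From 7 to 21 dpi the log2 ratio was -0.39 in ApoE3 and 0.17 in ApoE4 as deposited, and -0.48 and -0.35 relative to all genes, so both genotypes were on the lower side on that scale.

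GPR17, a receptor carried by committed precursors and lost as they mature, had the widest difference over time, and between genotypes at 21 dpi, of the 9 genes listed at both times. Its level was 65.9 FPKM in ApoE3 and 73.6 FPKM in ApoE4 at 7 dpi. At 21 dpi the level was 16.8 FPKM in ApoE3 and 31.1 FPKM in ApoE4. The level at 7 dpi was 3.94 times that at 21 dpi in ApoE3 and 2.37 times in ApoE4. Between genotypes the log2 ratio was -0.16 at 7 dpi and -0.85 at 21 dpi, and -0.16 and -0.43 relative to all genes. At 21 dpi 6.48% of all genes had a ratio at or below that of GPR17, against 20.0% at 7 dpi. In RefSeq the span of GPR17 overlaps that of LIMS2, an adhesion adaptor that is itself counted among markers of newly formed cells. The named library kit, TruSeq RNA Sample Prep Kit v2, does not keep strand. Reads from bases that exons of both genes share therefore cannot be told apart. Whether any exons overlap was not examined, since whole spans were compared. LIMS2 had 80.7 FPKM in ApoE3 and 105 FPKM in ApoE4 at 7 dpi and 92.0 FPKM and 111 FPKM at 21 dpi, so its level was not lower at the later time as deposited. Its log2 time ratio relative to all genes was 0.10 in ApoE3 and -0.44 in ApoE4, the latter lower past the fold. Spans overlap that of another gene for 7 of the 10 genes in all. The others are OLIG1, SOX10 and MYRF, whose spans overlap no other gene in RefSeq. NKX6-2 overlaps INPP5A, NKX2-2 overlaps the non-coding 6430503K07RIK, and PDGFRA, OLIG2, BCAS1 and ENPP6 each overlap a non-coding RNA gene that was not listed.

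ENPP6, a choline phosphodiesterase of newly forming oligodendrocytes, had a level of 83.4 FPKM in ApoE3 and 91.6 FPKM in ApoE4 at 7 dpi. At 21 dpi the level was 59.2 FPKM in ApoE3 and 68.1 FPKM in ApoE4. Both genotypes had the lower level at 21 dpi, as with PDGFRA and GPR17. The ENPP6 genotype ratio (log2) was -0.13 at 7 dpi and -0.20 at 21 dpi as deposited. Relative to all genes it was -0.13 and 0.22, the highest of the 9 genes at 21 dpi. Its time ratio (log2) was -0.58 in ApoE3 and -0.95 in ApoE4 relative to all genes.

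The ENPP6 window, chr8:46986637-46986936 on the plus strand, holds ACAATG on the strand of the gene and CACTT on the opposite strand, shown as its reverse complement, and both are in capitals.
ENPP6: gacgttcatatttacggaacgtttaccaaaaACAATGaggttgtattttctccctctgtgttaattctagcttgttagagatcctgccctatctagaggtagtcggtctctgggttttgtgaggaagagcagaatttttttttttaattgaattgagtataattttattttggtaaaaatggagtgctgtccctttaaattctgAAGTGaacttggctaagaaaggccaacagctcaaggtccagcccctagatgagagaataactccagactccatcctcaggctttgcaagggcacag

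BCAS1, a protein found in premyelinating and early myelinating cells and in myelin, was the most abundant of the listed members in every group. Its level was 4849.5 FPKM in ApoE3 and 5079.9 FPKM in ApoE4 at 7 dpi. At 21 dpi its level was 7240.9 FPKM in ApoE3 and 8971 FPKM in ApoE4. It was the member with the highest time ratio (log2) in both genotypes, 0.58 in ApoE3 and 0.82 in ApoE4, or 0.49 and 0.29 relative to all genes. Its genotype ratio (log2) was -0.07 at 7 dpi and -0.31 at 21 dpi, and -0.07 and 0.11 relative to all genes.

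Between the genotypes at 7 dpi, 9 of the 10 genes were lower in ApoE3 and 1, MYRF, was higher, and none passed the fold. Of all 14127 entries at 7 dpi 8.54% passed that fold in either direction. The median log2 ratio of the 10 genes was -0.16, beside 0.0018 for all genes, and the ratios ran from -0.30 to 0.17. At 7 dpi the members thus lay mostly on the ApoE4 side by small amounts.

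At 21 dpi all 9 listed genes were lower in ApoE3 as deposited, and 6 of them, PDGFRA, OLIG1, OLIG2, NKX2-2, GPR17 and MYRF, passed the 1.3-fold as higher in ApoE4. That is 6 of 9 where 58.9% of all 11474 entries passed in the same direction, so the count is near that of genes at large. Relative to that of all genes, only GPR17, 1 of 9, passed the fold, where 15.5% of all entries passed in either direction. On that scale 4 genes (PDGFRA, OLIG1, OLIG2 and GPR17) were below the median gene and 5 (SOX10, NKX2-2, MYRF, ENPP6 and BCAS1) above it. The median of the 9 log2 ratios was -0.40 as deposited, beside -0.42 for all genes, and 0.02 relative to all genes. As a list the 9 genes therefore sat at the place of the median gene at 21 dpi.

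**Figure D2:**
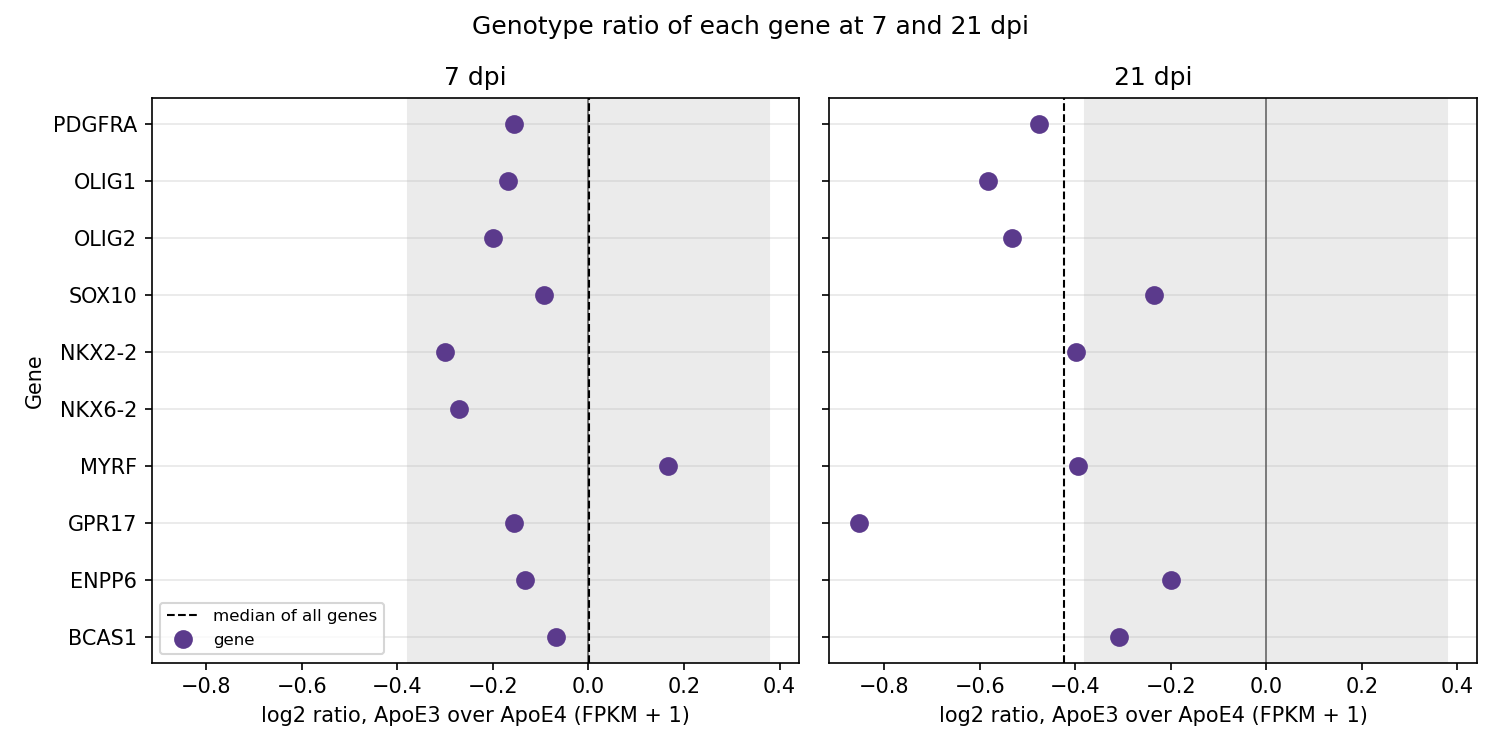
Log2 ratio of FPKM + 1, ApoE3 over ApoE4, for each gene at 7 dpi (left) and 21 dpi (right), with the median of all genes as a dashed line and the range within 1.3-fold in grey. The points at 7 dpi lie within the grey range, and at 21 dpi the dashed line itself lies at -0.42, with GPR17 at -0.85 as the point farthest from it.

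The comparison of 21 with 7 dpi set the 9 genes further apart than the genotypes did. On the relative scale, 4 of 9 in ApoE3 (PDGFRA, GPR17, ENPP6 and MYRF) were lower at 21 dpi by 1.3-fold or more and 1, BCAS1, was higher, where 54.3% of all 10876 genes listed at both times passed in either direction, 27.7% as lower and 26.6% as higher. In ApoE4, 3 of 9 (PDGFRA, GPR17 and ENPP6) were lower and 0 higher, where 54.8% of all genes passed, 28.6% as lower and 26.1% as higher. As deposited, the same 4 in ApoE3 were lower and BCAS1 higher, beside 23.6% and 31.3% of all genes. In ApoE4 as deposited the same 3 were lower and 4 (OLIG1, OLIG2, SOX10 and BCAS1) higher, beside 10.9% and 59.0%. Whether these counts differ from the shares of all genes was not tested. The sizes differed between the genes. GPR17 had a relative log2 time ratio of -2.004 in ApoE3 and -1.74 in ApoE4, at or below which lay 1.52% and 3.02% of all genes. PDGFRA stood at 7.14% and 6.34% in the same order, and ENPP6 at 19.1% and 10.04%. The median of the 9 genes was 0.06 in ApoE3 and 0.28 in ApoE4 as deposited, and -0.03 and -0.25 relative to all genes. OLIG1, OLIG2, SOX10 and NKX2-2 lay within the fold in both genotypes on the relative scale.

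**Figure D3:**
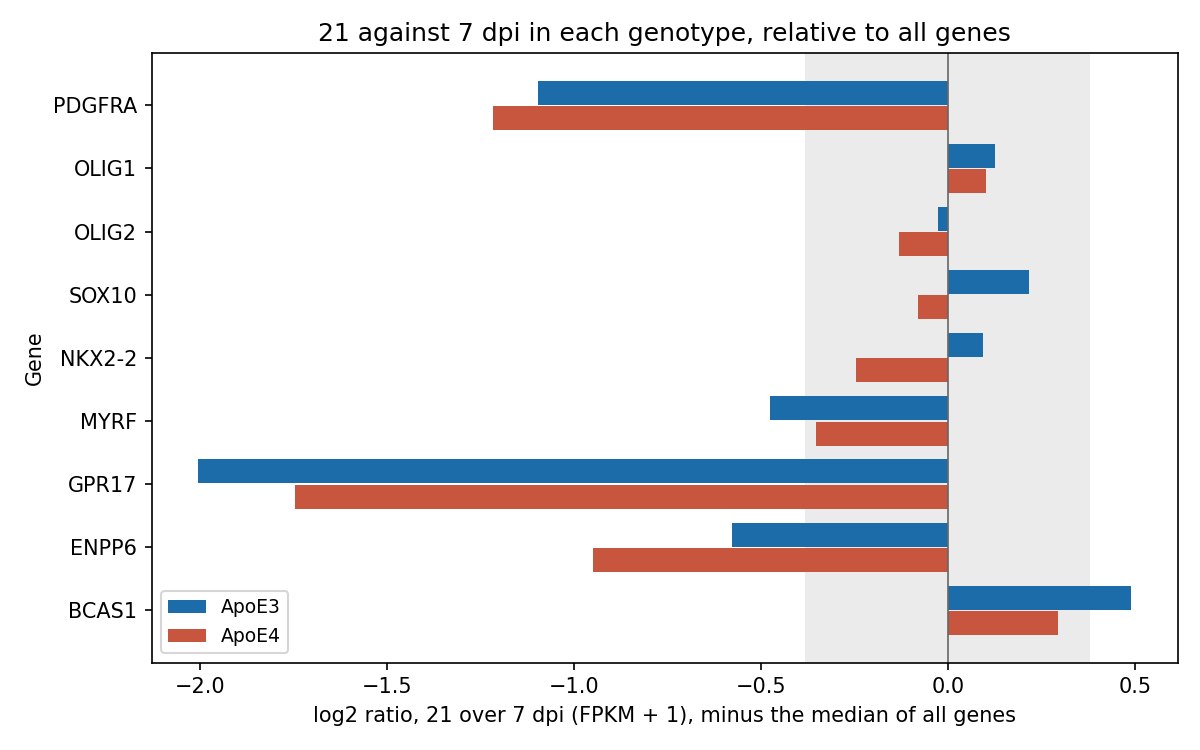
Log2 ratio of FPKM + 1, 21 over 7 dpi, minus the median of all genes, for the 9 genes listed at both times, with blue bars for ApoE3 and red bars for ApoE4 and the range within 1.3-fold in grey. GPR17 has the lowest bars, -2.004 in ApoE3 and -1.74 in ApoE4, followed by PDGFRA at -1.10 and -1.21, and BCAS1 is above the grey range in ApoE3 alone, at 0.49.

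Proportions between members within a group need no scaling between groups. For each unit of GPR17, BCAS1 had 73.5 times the level in ApoE3 and 69.0 times in ApoE4 at 7 dpi. At 21 dpi it had 432 times the level in ApoE3 and 289 times in ApoE4. The proportion of BCAS1 to GPR17 was thus higher at 21 dpi in both genotypes, and most so in ApoE3. The level of PDGFRA was 1.297 times that of GPR17 in ApoE3 and 1.295 times in ApoE4 at 7 dpi, and 2.51 times in ApoE3 and 1.89 times in ApoE4 at 21 dpi. BCAS1 to PDGFRA stood at 56.7 in ApoE3 and 53.3 in ApoE4 at 7 dpi and at 172 and 153 at 21 dpi, which is closer between genotypes than the proportion to GPR17. ENPP6 had 1.27 times the level of GPR17 in ApoE3 and 1.24 times in ApoE4 at 7 dpi, and 3.53 and 2.19 times at 21 dpi. The proportions to GPR17 restate its genotype ratio, the lowest of the 9 genes at 21 dpi, and do not single it out separately. Without GPR17, BCAS1 to MYRF stood at 17.6 in ApoE3 and 16.6 in ApoE4 at 21 dpi, and MYRF to SOX10 at 5.29 and 5.90. Other pairs of members were not all formed.

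The level of MBP, the most abundant gene of central myelin in the lists, offers another scale. MBP itself had 120571 FPKM in ApoE3 and 127575 FPKM in ApoE4 at 7 dpi, and 201348 FPKM and 278678 FPKM at 21 dpi. Every member listed at both times was lower per unit of MBP at 21 dpi, also OLIG1, whose own level was higher. Per 1000 units of MBP, PDGFRA had 0.709 in ApoE3 and 0.747 in ApoE4 at 7 dpi, and 0.209 and 0.211 at 21 dpi. Relative to MBP, PDGFRA was therefore lower at 21 dpi in both genotypes and nearly equal between them. GPR17 had 0.547 and 0.577 at 7 dpi and 0.083 and 0.111 at 21 dpi in the same order. MYRF had 4.47 in ApoE3 and 3.76 in ApoE4 at 7 dpi and 2.05 and 1.94 at 21 dpi. BCAS1 had 40.2 and 39.8 at 7 dpi and 36.0 and 32.2 at 21 dpi, which made it the member nearest to constant beside MBP over time.

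Other genes of the lineage were read from lists set by known roles. Of 15 other precursor markers, all were listed at 7 dpi and 14 at 21 dpi. At 7 dpi 1, C1QL1, a secreted C1q-domain protein, passed the 1.3-fold as higher in ApoE4, with 16.6 FPKM in ApoE3 and 24.9 FPKM in ApoE4, where 8.54% of all entries passed in either direction, and the median log2 ratio was -0.12. DSCAM, an adhesion molecule, had the highest ratio at 7 dpi, with 50.1 FPKM and 43.4 FPKM, and SOX6, a factor that holds precursors immature, the highest level, with 322 FPKM and 364 FPKM. At 21 dpi 9 of 14 passed as higher in ApoE4 as deposited, where 58.9% of all entries did. Relative to all genes 2 of 14 passed as lower in ApoE3 and 0 as higher, where 15.5% of all entries passed in either direction, and 7 lay on each side of the median gene. PTPRZ1, a receptor phosphatase of precursors that astrocytes also make, was lowest there, with 78.0 FPKM in ApoE3 and 153 FPKM in ApoE4. MEGF11, a membrane protein with EGF-like repeats, had the highest ratio, with 37.7 FPKM and 44.4 FPKM, and LNX1, a ubiquitin ligase, the highest level, with 186 FPKM and 238 FPKM. Over time and relative to all genes, 7 of 14 in ApoE3 and 9 of 14 in ApoE4 were lower at 21 dpi by 1.3-fold. In each genotype 1 was higher. Of all genes, 27.7% in ApoE3 and 28.6% in ApoE4 were lower past the fold, and 26.6% and 26.1% higher. The median log2 time ratios relative to all genes were -0.44 in ApoE3 and -0.49 in ApoE4, on the side of PDGFRA. As deposited they were -0.35 and 0.03, the latter on the other side of 0.

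Of 15 markers of committed and newly formed oligodendrocytes, 14 were listed at 7 dpi and 10 at 21 dpi. At the earlier time 0 of 14 passed the fold between genotypes, with a median log2 ratio of 0.07. ITPR2, a calcium release channel, had the highest ratio at 7 dpi with 43.8 FPKM in ApoE3 and 38.7 FPKM in ApoE4, LIMS2 the lowest, and TNS3, a focal adhesion protein, the highest level with 468 FPKM and 458 FPKM. At 21 dpi 4 of 10 passed as higher in ApoE4 as deposited, beside 58.9% of all entries. As deposited 1 also passed as higher in ApoE3, where 93.8% of listed genes had a lower level in ApoE3. The share of all entries past the fold in that direction was not computed. Relative to all genes 1 passed in each direction, beside 15.5% of all entries in either direction. Those 2 were ITPR2, with 19.4 FPKM in ApoE3 and 37.2 FPKM in ApoE4, and KIF19A, a kinesin, with 23.4 FPKM in ApoE3 and 13.9 FPKM in ApoE4. ITPR2 was thus at the high end of its list at 7 dpi and at the low end at 21 dpi, and SIRT2, a deacetylase of myelinating cells and the most abundant at 21 dpi, had 326 FPKM and 436 FPKM. Relative to all genes, 8 of 10 in ApoE3 and 9 of 10 in ApoE4 were lower at 21 dpi by 1.3-fold and 0 higher. Of all genes, 27.7% in ApoE3 and 28.6% in ApoE4 were lower past the fold, and 26.6% and 26.1% higher. The 2 that did not pass in ApoE3, LIMS2 and KIF19A, were above the median gene there. The median log2 time ratios of the list relative to all genes were -0.95 in ApoE3 and -0.96 in ApoE4, on the side of GPR17 and ENPP6. As deposited they were -0.86 and -0.43, further apart between the genotypes.

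Regulators of differentiation beyond the 10 genes showed small medians between genotypes. Of 13 other promoters of differentiation, 13 were listed at 7 dpi and 10 at 21 dpi, and the median log2 ratio relative to all genes was -0.03 and 0.01. At 7 dpi 0 of 13 passed the fold. ZFP536, a zinc finger repressor, had the highest ratio at 7 dpi with 158 FPKM in ApoE3 and 147 FPKM in ApoE4, HDAC1, a histone deacetylase, the lowest with 21.5 FPKM and 25.4 FPKM, and ZEB2, a zinc finger factor, the highest level with 379.9 FPKM and 364 FPKM. At 21 dpi 1 of 10 passed relative to all genes, beside 15.5% of all entries, ZFP488, a partner of OLIG2, with 4.67 FPKM in ApoE3 and 9.61 FPKM in ApoE4. HDAC1 had the highest ratio at 21 dpi, with 21.0 FPKM and 23.9 FPKM, and THRA, a thyroid hormone receptor, the highest level, with 485 FPKM and 589 FPKM.

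Of 15 genes in the list of inhibitors of differentiation, 13 were listed at 7 dpi and 12 at 21 dpi. Their median log2 ratio relative to all genes was 0.04 and -0.02. None of the 13 passed at 7 dpi, where HES5, a NOTCH target, had the highest ratio with 3.80 FPKM in ApoE3 and 2.88 FPKM in ApoE4 and ID2, an inhibitor of basic helix-loop-helix proteins, the lowest with 77.9 FPKM and 95.7 FPKM. CTNNB1, the WNT mediator beta-catenin, was the most abundant, with 730.1 FPKM in ApoE3 and 712 FPKM in ApoE4 at 7 dpi and 481 FPKM and 681 FPKM at 21 dpi. At 21 dpi 2 of 12, HES1 and AXIN2, were past the fold as higher in ApoE3 relative to all genes. Of all entries 15.5% passed in either direction. AXIN2 is a target of WNT that in turn restrains it, so it marks that pathway and is not itself an inhibitor of differentiation. It stays in the counts of inhibitors below. HES1, a second NOTCH target, was highest with 14.9 FPKM in ApoE3 and 14.2 FPKM in ApoE4, and EGR1, an immediate early factor, lowest with 10.6 FPKM and 17.3 FPKM. Over time and relative to all genes, 2 of 10 promoters in ApoE3 and 3 in ApoE4 were lower past the fold and 2 in each were higher, whereas 5 of 12 inhibitors in ApoE3 and 7 in ApoE4 were lower and 2 in each higher, beside 27.7% and 28.6% of all genes as lower and 26.6% and 26.1% as higher. As deposited, 6 of 10 promoters and 8 of 12 inhibitors passed at 21 dpi as higher in ApoE4, beside 58.9% of all entries. Neither regulator list stood to one side of the median gene at 21 dpi, with 5 of 10 promoters and 6 of 12 inhibitors above it.

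Of 12 mitogens and growth factors that act on precursors, 12 were listed at 7 dpi and 9 at 21 dpi. At the earlier time 1 passed the fold as higher in ApoE3, NRG1, an axonal ligand of ERBB receptors, with 441 FPKM in ApoE3 and 329 FPKM in ApoE4, and 1 as higher in ApoE4, LIF, a cytokine that favours oligodendrocyte survival, with 5.95 FPKM and 10.2 FPKM, beside 8.54% of all entries in either direction. At 21 dpi the median log2 ratio relative to all genes was -0.17, with 6 of 9 below the median gene, and 7 of 9 passed as higher in ApoE4 as deposited, beside 58.9% of all entries. On the relative scale 1 of 9, IGF1, was lower past the fold in ApoE3 and 1, CNTF, higher, beside 15.5% in either direction. IGF1, a growth factor for precursors that microglia and macrophages also make, was lowest with 92.5 FPKM in ApoE3 and 189 FPKM in ApoE4, where it had 938 FPKM and 1079.5 FPKM at 7 dpi as the most abundant of the list. CNTF, a cytokine of astrocytes and Schwann cells, had the highest ratio at 21 dpi with 55.0 FPKM and 49.6 FPKM, and NRG1 the highest level with 325 FPKM and 527 FPKM.

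The mature end of the lineage was read from 20 genes of mature oligodendrocytes and central myelin, of which 16 were listed at 7 dpi and 15 at 21 dpi. At the earlier time 11 of 16 were above the median gene in ApoE3 over ApoE4, with a median log2 ratio of 0.11 relative to all genes, whereas 9 of the 10 members were below it. At 21 dpi 14 of 15 were below the median gene, with a median of -0.17, and 14 of 15 passed as higher in ApoE4 as deposited, beside 58.9% of all entries. On the relative scale 2 of 15 were lower past the fold in ApoE3 and 0 higher, beside 15.5% in either direction. MBP, the main basic protein of myelin, had 120571 FPKM in ApoE3 and 127575 FPKM in ApoE4 at 7 dpi and 201348 FPKM and 278678 FPKM at 21 dpi. NINJ2, an adhesion protein, had the highest ratio at 7 dpi with 10.995 FPKM and 5.20 FPKM. At 21 dpi ASPA, an enzyme that splits N-acetylaspartate, had the lowest ratio with 260.4 FPKM in ApoE3 and 460.04 FPKM in ApoE4, and GJB1, a gap junction protein, the highest with 390.4 FPKM and 481 FPKM. Over time, 4 of 13 mature genes in ApoE3 and 9 of 13 in ApoE4 were higher at 21 dpi by 1.3-fold relative to all genes, where 26.6% and 26.1% of all genes were. In ApoE3 1 of 13, CLDN11, a tight junction protein of myelin, was lower past the fold, with 286 FPKM at 7 dpi and 218 FPKM at 21 dpi, and in ApoE4 0. Of all genes, 27.7% in ApoE3 and 28.6% in ApoE4 were lower past the fold. Relative to all genes, the median log2 time ratios of the mature list were 0.20 and 0.46, where the precursor and newly formed lists had medians below 0. As deposited those of the mature list were 0.29 and 0.99, and the precursor median in ApoE4 was 0.03, not below 0. Whether the genotypes differ in this was not tested.

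**Figure D4:**
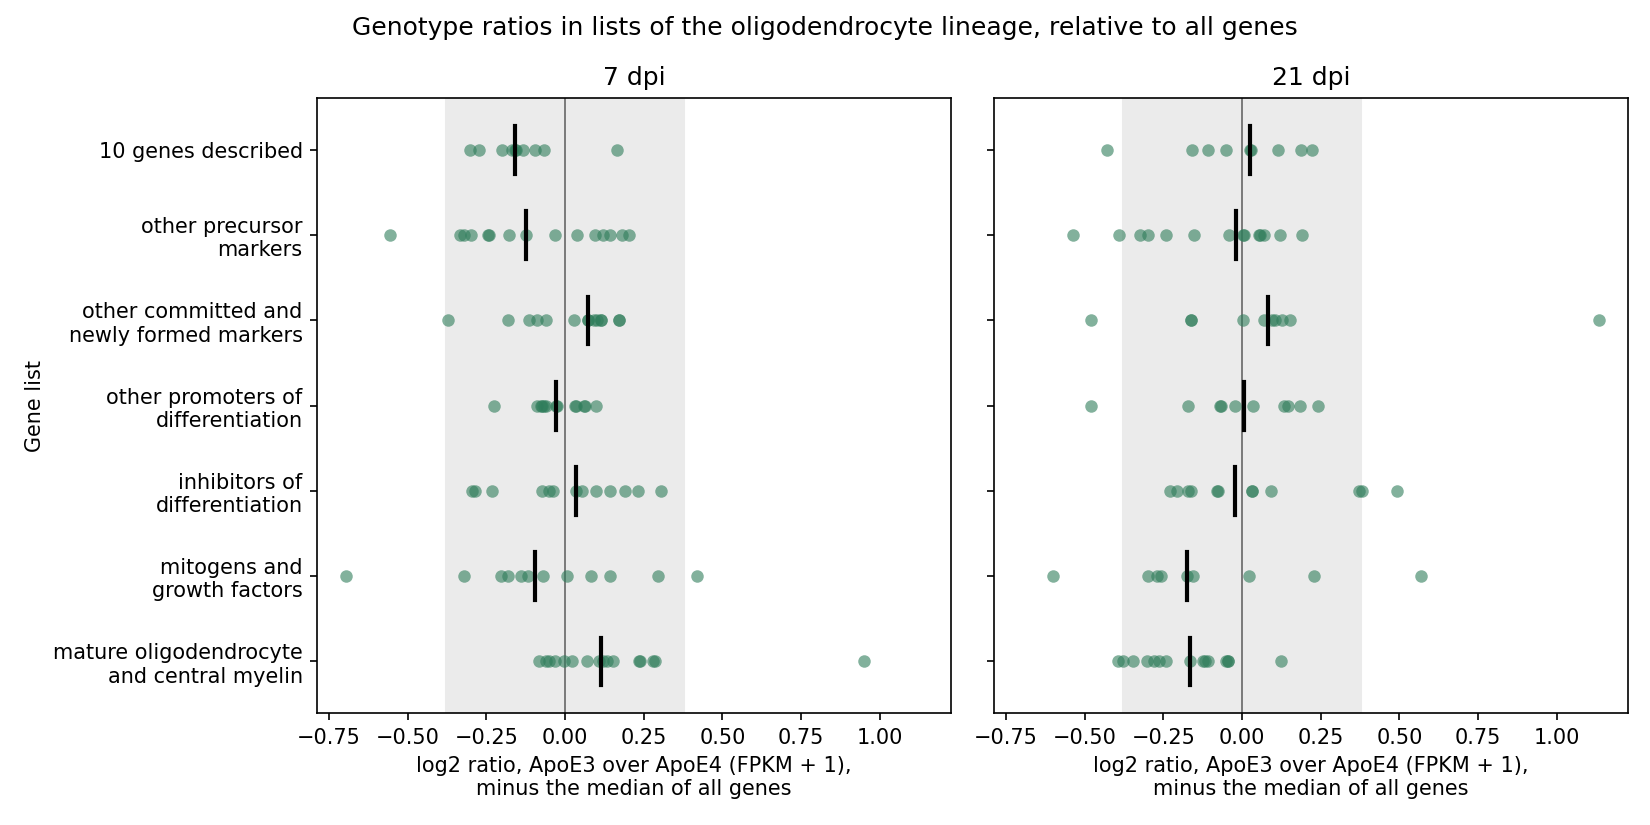
Log2 ratio of FPKM + 1, ApoE3 over ApoE4, minus the median of all genes, for each listed gene (1 point per gene) of 7 lists at 7 dpi (left) and 21 dpi (right), with each list's median as a black bar and the range within 1.3-fold in grey. The medians of the 10 genes described here are -0.16 at 7 dpi and 0.02 at 21 dpi, and those of the mature oligodendrocyte list 0.11 and -0.17.

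Other cells of the lesion also differed between the groups, and their part in the values of the 10 genes was not tested. Of 10 macrophage genes at 7 dpi, 9 were below the median gene in ApoE3 over ApoE4, with a summed level of 8375.6 FPKM in ApoE3 and 11174 FPKM in ApoE4. At 21 dpi 3 of 4 were below it, with 273 FPKM and 529 FPKM. LYZ2, a lysozyme, was the most abundant at both times, with 4522 FPKM and 6076.5 FPKM at 7 dpi. Of the microglia list, 4 of 7 genes at 7 dpi and 6 of 6 at 21 dpi were below the median gene, with sums of 1183 FPKM and 1363 FPKM and then 283 FPKM and 509 FPKM, and with SIGLECH, a lectin, as the most abundant at 21 dpi. Of 10 genes of cycling cells, 10 were below the median gene at 7 dpi, with 159.7 FPKM in ApoE3 and 227 FPKM in ApoE4 and TOP2A, a topoisomerase, first. At 21 dpi 3 of 5 cycling genes were below it, with 17.4 FPKM and 33.5 FPKM and BIRC5, a protein of mitosis, first. Most cycling, macrophage and fibroblast genes were, like 9 of the 10 lineage genes, lower in ApoE3 at 7 dpi. The sizes differed, as 6 of 10 cycling genes and 0 of the 10 lineage genes passed the fold, beside 8.54% of all entries in either direction.

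Among the resident neural cells, 4 of 9 astrocyte genes at 7 dpi and 9 of 10 at 21 dpi were below the median gene, with sums of 17726 FPKM and 17267 FPKM at 7 dpi and 13994 FPKM and 24145 FPKM at 21 dpi. GFAP, an intermediate filament, was the most abundant at both times. All 10 neuron genes were above the median gene at 7 dpi, with 5947 FPKM in ApoE3 and 4679 FPKM in ApoE4, and 6 of 8 were below it at 21 dpi, with 8129 FPKM and 12133 FPKM, and SNAP25, a protein of synaptic release, was the most abundant. Endothelial and mural genes were below the median gene in 7 of 10 at 7 dpi and above it in 8 of 8 at 21 dpi. Their sums were 429 FPKM and 427 FPKM, with RGS5 first, and 371 FPKM and 455 FPKM, with FLT1 first. Skeletal muscle genes were above the median gene in 5 of 6 at 7 dpi, with 65.5 FPKM and 42.8 FPKM, and below it in 8 of 8 at 21 dpi, with 34.1 FPKM in ApoE3 and 732 FPKM in ApoE4, and TNNT3, a troponin, was the most abundant at both times. MYH4, a fast myosin, was listed at 0 in ApoE3 at 21 dpi, and no other listed gene of these cell type lists was at 0 in any group.

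The genes with a pattern over the 4 groups most like the median of the 9 genes listed at both times were 2210016F16RIK, NPEPL1, ARPC4, IRX5 and SAAL1. Likeness was the Euclidean distance between profiles of log2(FPKM + 1), each minus the group's median and then minus the gene's own mean, over 10861 genes with a mean level of at least 1 FPKM. The distances were 0.039, 0.041, 0.043, 0.044 and 0.048. The median profile of the 9 genes was itself nearly flat, at -0.12 in ApoE3 and 0.09 in ApoE4 at 7 dpi and -0.03 and -0.01 at 21 dpi.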

How the data were processed

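RNA-seq was measured at the lesion site in 4 groups, and the labels put 1 sample in each. The authors deposited FPKM plus 1, and 1 was subtracted to give FPKM. Their libraries were reduced to equal read numbers, and the submitters' processing notes name STAR 2.5.4b, Bowtie2 2.1.10, SAMtools 0.1.7 and Cuffdiff 1.3.0. The genome build and the annotation are not given in the sources used here. Reads per gene are unknown, so no counting error is given. Further columns hold the authors' p-values, q-values, fold changes, log2 fold changes and significance marks. A second table holds log2 fold changes of their differentially expressed genes. The fold changes served only to settle which value is divided by which, and none of the others was used. Value columns that could not be given to a group numbered 0.

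Log2 ratios used a pseudocount of 1, which understates differences of genes with low levels. No test was run, since 1 value per group gives no spread. A gene was called past 1.3-fold. Relative values are ratios from which the median over genes averaging at least 1 FPKM was subtracted. The members and lists were chosen with earlier results of these data known. The text names all members, in each other list the genes with the highest and lowest relative ratio among those with a mean of at least 1 FPKM and the most abundant gene, and the 5 genes nearest to the members' median profile. COL1A1, DCN, FN1, CLDN11, AXIN2, LIMS2 and KIF19A over time, DRP2 at 21 dpi and the overlapping genes were named outside that rule, after their values were seen. The values of some genes that the rule takes are not reported here, and they remain in the counts, sums and medians of their lists. Alternatives were pseudocounts of 0.1 and 0.01, a mean of at least 1 FPKM, centring on the median and folds of 1.5 and 2, and, chosen after seeing the data, scaling to equal sums of listed FPKM. Overlaps and neighbours came from RefSeq genes of GRCm38.p6, without strand. The procedure was tested on simulated data. Computations used Python 3.11.15, numpy 2.4.6, pandas 2.3.3 and matplotlib 3.10.9.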

Additional observations from a re-analysis of the deposited data

Results flagged for a closer look

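MYRF had opposite genotype directions at the 2 time points as deposited, with a log2 ratio at 21 dpi minus that at 7 dpi of -0.56. On the scale relative to all genes this difference was -0.14, and the MYRF ratio did not change sign. Relative to all genes, 4 genes were below the median gene at 7 dpi and above it at 21 dpi. Their relative log2 ratio at 21 dpi minus that at 7 dpi was 0.28 for SOX10, 0.33 for NKX2-2, 0.18 for BCAS1 and 0.36 for ENPP6. Each value rests on 1 value per group, and none of these differences was tested.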

How the results depend on the processing

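The number of members past the fold at 21 dpi, 6 of 9, was 1 after centring, 1 after scaling to equal sums of listed FPKM, 1 at a fold of 1.5 and 0 at a fold of 2. At 7 dpi it was 0 under every alternative run. The median log2 genotype ratio at 21 dpi, -0.40, was 0.025 after centring and 0.0345 after scaling to equal sums, on the other side of 0. So were 5 of the 9 single ratios at 21 dpi. After centring and after equal sums, MYRF stood at 0.029 and 0.043, NKX2-2 at 0.025 and 0.0345, SOX10 at 0.19 and 0.20, ENPP6 at 0.22 and 0.23 and BCAS1 at 0.11 and 0.13. Of these only MYRF and NKX2-2 had passed the fold as deposited. The median log2 time ratio in ApoE3, 0.06, was -0.20 with equal sums, and that in ApoE4, 0.28, was -0.25 after centring and -0.42 with equal sums. These shifts follow from the construction of both scalings, which take out the difference of all genes. The other 4 single ratios at 21 dpi kept their sign but moved by 0.1 or more on the log2 scale, the 10 at 7 dpi moved by less, and pseudocounts of 0.1 and 0.01 moved none of the 19 by that much. No paired analysis was possible because each group holds 1 value. Cell loss and RNA per cell cannot be separated, the genotype columns have a second reading, and the time points may have been normalized separately.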
